A study of Mus musculus with 10 samples.

Results

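Chromosome 19 was followed through 10 leukemias of the mouse that carry BCR-ABL1, the fused tyrosine kinase of one form of acute lymphoblastic leukemia. The genome regions described are the 9546 array probes of chromosome 19 that lie outside a pair of left-out intervals, of 402346 probes with a place in the genome (2.37%). They were selected on measured values: chromosome 19 had been seen to be raised over its whole length in Ikzf1+/+ tumour 5 and over a part of it in Ikzf1+/- tumour 5. The levels of these tumours are therefore given as a description, with no test. In the mm9 build used by the files, the members run from position 3147156 to position 61337260, a span of 58.2 Mb. The left-out intervals held 715 probes from 32704481 to 33346442 and 21 probes from 40981480 to 41087089.

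The tumours were 5 Ikzf1+/+ and 5 Ikzf1+/- primary leukemias, numbered 1 to 5 within each genotype. Ikzf1 encodes Ikaros, a transcription factor of lymphoid development, and Ikzf1+/- cells keep 1 intact allele. All 10 were BCR-ABL1 leukemias, taken as GFP-positive bone marrow cells, so the oncogene and the sort were shared by both groups. Each was hybridised in Cy5 against stage-matched non-leukemic bone marrow DNA in Cy3, named as B220-positive B cell DNA in the design text, and no dyes were swapped. Ages and strains were not given in the labels, nor was it stated whether each tumour came from a separate animal or how many tumours shared a reference DNA. A p-value over these samples measures only the spread between them.

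A gain of chromosome material raises the dose of every gene on it at the same time, and a leukemia often carries such a gain in only some of its cells. Chromosome 19 of the mouse holds Jak2, the gene of a tyrosine kinase that sits on cytokine receptors and phosphorylates STAT transcription factors, which drive growth and survival of blood cell precursors. Array comparative genomic hybridisation reads the mean dose over all cells of a sample, so the number of extra copies and the share of cells that carry them cannot be told apart.

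The value throughout is the log2 ratio of tumour over non-leukemic signal, centred on the median of the autosomal probes of the same array, so that 0 means the dose of an average autosome. An extra copy in every cell, 3 against 2, would give 0.58. Noise per probe, as an SD of log2 ratios, was 0.177 to 0.215 on Ikzf1+/+ arrays and 0.166 to 0.181 on Ikzf1+/- arrays. Median background-subtracted Cy5 signals were 88.4 to 159 on Ikzf1+/+ arrays and 199 to 225 on Ikzf1+/- arrays. Tumour signal was thus lower on every Ikzf1+/+ array, and its effect on the genotype comparisons was not tested. Median Cy3 signals were 146 to 179 over all arrays. The median distance between neighbouring members was 5.29 kb, and 9428 members (98.8%) passed the scanner's background test and were not saturated in either channel of any array. The median of chromosome X was 0.84 to 0.94 on Ikzf1+/+ arrays and 0.09 to 0.14 on Ikzf1+/- arrays, and that of chromosome Y was -2.87 to -2.30 and 0.05 to 0.09, so the tumours and references of the Ikzf1+/+ arrays differed in X and Y dose while those of the Ikzf1+/- arrays were close.

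Chromosome 19 was raised in 2 of 10 tumours, 1 of each genotype. Its median level was 0.011, -0.014, -0.025, -0.016 and 0.21 in Ikzf1+/+ tumours 1 to 5. In Ikzf1+/- tumours 1 to 5 it was -0.0099, -0.0062, -0.0049, -0.015 and 0.18. The other 8 tumours thus lay within 0.025 of the autosomal median, and both raised tumours lay far above them. For comparison, the medians of the autosomes other than 5, 14 and 19 had an SD of 0.011 in Ikzf1+/+ tumour 5 and 0.0052 in Ikzf1+/- tumour 5. The group mean was 0.034 ± 0.102 for Ikzf1+/+ and 0.030 ± 0.087 for Ikzf1+/- (SD over 5 tumours of a genotype). Ikzf1+/- minus Ikzf1+/+ was -0.0042, small beside either SD. Leaving out Ikzf1+/+ tumour 5 turned this difference to 0.041, and leaving out Ikzf1+/- tumour 5 moved it to -0.043.

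**Figure D1:**
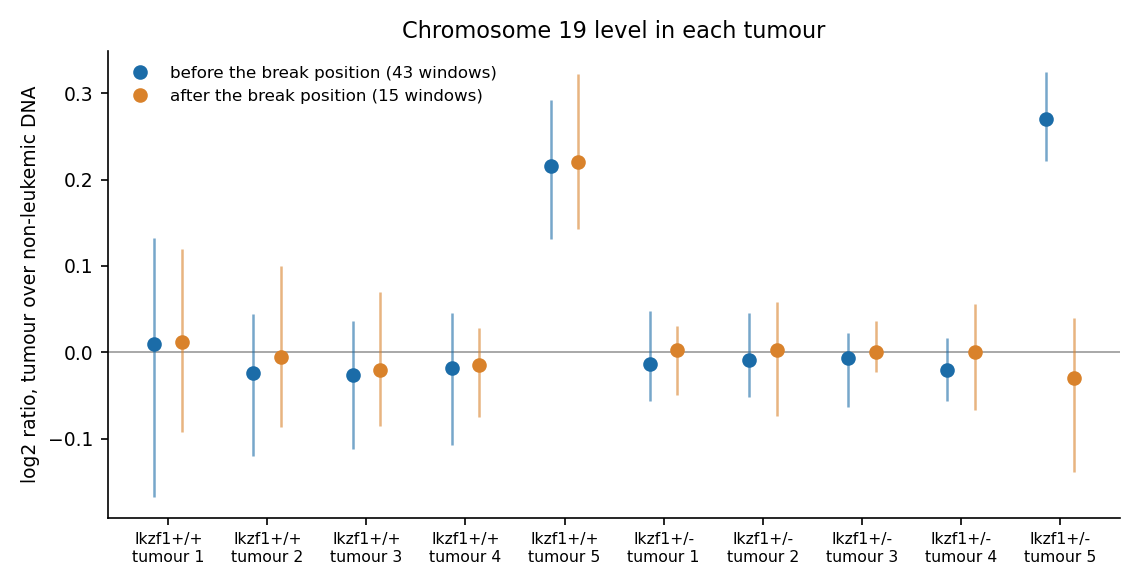
Mean log2 ratio of chromosome 19 probes before (blue) and after (orange) the break position of Ikzf1+/- tumour 5, for each of the 10 tumours; vertical lines span the lowest to the highest 1 Mb window. Ikzf1+/+ tumour 5 was raised on both sides (0.22 and 0.22), Ikzf1+/- tumour 5 only before the break (0.27 against -0.029), and the other 8 tumours lay near 0 on both.

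The 2 raised tumours differed in how much of the chromosome was raised. Cut into 4 parts of equal length, chromosome 19 of Ikzf1+/+ tumour 5 had medians of 0.21, 0.20, 0.23 and 0.21 from the centromeric end to the distal end. The same parts of Ikzf1+/- tumour 5 lay at 0.26, 0.26, 0.27 and -0.026. At this scale the gain of the former therefore covered the whole probed length, and that of the latter ended before the last part. The parts of the other 8 tumours lay between -0.040 and 0.040.

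Windows of 1 Mb with at least 20 probes showed the same picture at a finer scale. A window was called gained when its mean reached 0.15. In Ikzf1+/+ tumour 5, 55 of 59 chromosome 19 windows were called, where 7.45% of all 2388 autosomal windows of this array were. In Ikzf1+/- tumour 5, 43 of 59 were called, against 3.1% of all autosomal windows. Since these arrays chose the chromosome, nothing is read from either excess. In each of the other 8 tumours 0 of 59 windows were called, and the share over all autosomes was 0.377%, 0.0419%, 6.16% and 0% for Ikzf1+/+ tumours 1 to 4. For Ikzf1+/- tumours 1 to 4 it was 0%, 0.0838%, 0% and 0%. The 6.16% of Ikzf1+/+ tumour 3 lay outside chromosome 19, in 147 windows of other autosomes.

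The windows of Ikzf1+/+ tumour 5 ran from 0.13 at 19000001 to 0.32 at 58000001. All 59 were above 0, and all 59 were above the highest of the 8 unraised tumours in the same window. The 4 windows that missed 0.15 started at 19000001, 39000001, 49000001 and 52000001, with 0.13, 0.14, 0.14 and 0.14, just short of the threshold. In each of these 4 windows the tumour was still above all 8 unraised tumours. The windows of Ikzf1+/- tumour 5 before its break ran from 0.22 to 0.32 (43 windows) and those after it from -0.14 to 0.039 (15 windows), so the sides did not overlap. Over the 8 unraised tumours, single windows ran from -0.17 to 0.13.

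**Figure D2:**
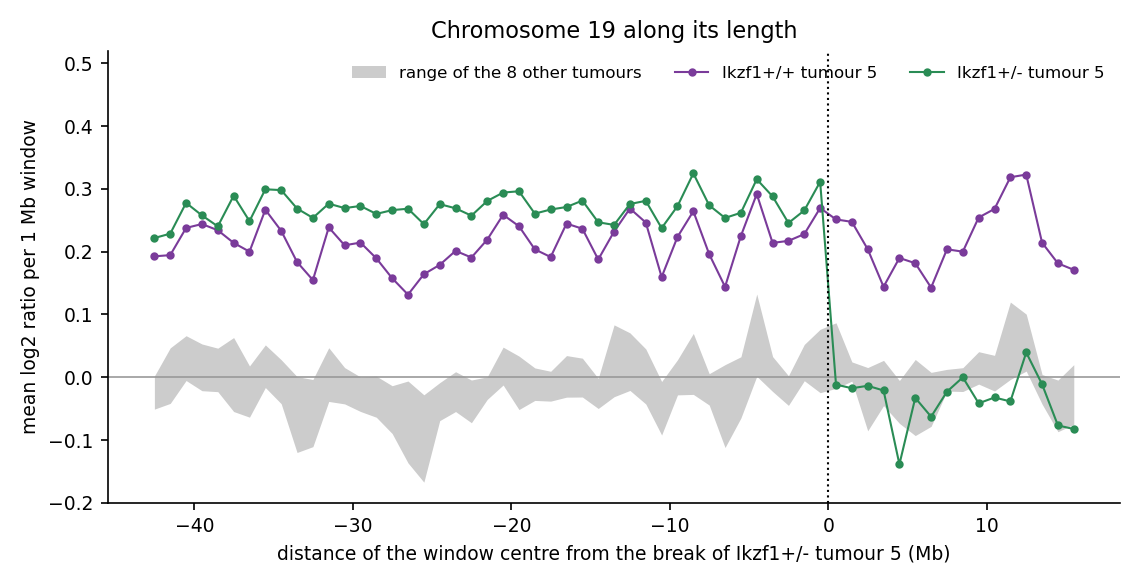
Mean log2 ratio per 1 Mb window along chromosome 19, with the window's distance in Mb from the break of Ikzf1+/- tumour 5 on the horizontal axis (dotted line at 0). The grey band spans the lowest to the highest of the 8 other tumours; Ikzf1+/+ tumour 5 stays above it from end to end, and Ikzf1+/- tumour 5 falls from 0.31 to -0.012 between neighbouring windows at the break.

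Part of the up and down along the chromosome was shared between arrays. The window means of Ikzf1+/+ tumour 5 had an SD of 0.042, and after the mean of Ikzf1+/+ tumours 1 to 4 was subtracted in each window the SD was 0.021. The correlation between this tumour and that mean was 0.865 over 59 windows, which share their probes and array design; base composition was not used here. At the lowest window of Ikzf1+/+ tumour 5 the mean of the 4 others was -0.11, and at its highest window it was 0.073. After the subtraction its windows ran from 0.17 to 0.27 with a mean of 0.23, so the gain was more even than the raw profile. In Ikzf1+/- tumour 5 before the break, the window SD was 0.022 and fell to 0.018 when the mean of Ikzf1+/- tumours 1 to 4 was subtracted, with windows then between 0.25 and 0.32.

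The break in Ikzf1+/- tumour 5 was located by fitting 1 step to all its chromosome 19 probes by least squares, with at least 200 probes on each side. The step fell between the probe ending at 46021876 and the probe starting at 46028124, a gap of 6.25 kb. Fits with a residual sum of squares within 4 noise variances of the best differed in the last probe before the step. The start of that probe ran from 46007025 to 46028124, a range of 21.1 kb, and the step could lie up to the next probe beyond. In the best fit the mean was 0.27 over the 6334 probes before the step (SD over probes 0.203). After it the mean was -0.029 over 3209 probes (SD over probes 0.238), a step of 0.30. The gained side measured 42.9 Mb, or 73.7% of the probed span with 66.4% of the members, and the remaining side 15.3 Mb. Members are denser on the distal side, where the 1 Mb window at 53000001 alone holds 1218 of them (12.8%).

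The same fit on the other 9 tumours gave steps of 0.013 to 0.055; none came near the step in Ikzf1+/- tumour 5. In Ikzf1+/+ tumour 5 the best step was 0.042, at 53414544, from 0.21 to 0.25. A segmentation with a strong penalty (10 noise variances, multiplied by the natural log of the number of probes) left 1 segment in Ikzf1+/+ tumour 5 and 2 in Ikzf1+/- tumour 5, with the same boundary as the step fit. Among the 8 unraised tumours, 7 kept 1 segment and Ikzf1+/+ tumour 1 had 3, with a stretch from 17787585 to 21489774 at -0.13. Allowing 2 breaks in Ikzf1+/- tumour 5 kept the boundary and added one at 8712838, where the level went from 0.25 to 0.28, a difference within the range of steps seen in the unraised tumours.

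Close to the break the change was abrupt. In bins of 250 kb, the level of Ikzf1+/- tumour 5 was 0.29, 0.32, 0.33 and 0.32 over the last 1 Mb before it, with 34 to 49 probes per bin. Over the first 1 Mb after it the level was -0.0043, 0.0012, -0.027 and -0.046. Ikzf1+/+ tumour 5 stayed at 0.23, 0.27, 0.27 and 0.32 before the same position and 0.22, 0.28, 0.24 and 0.28 after it. At bins of 50 kb, Ikzf1+/- tumour 5 had 0.25 over the last 9 probes before the break and -0.032 over the first 7 after it, with SDs over probes of 0.10 and 0.24.

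**Figure D3:**
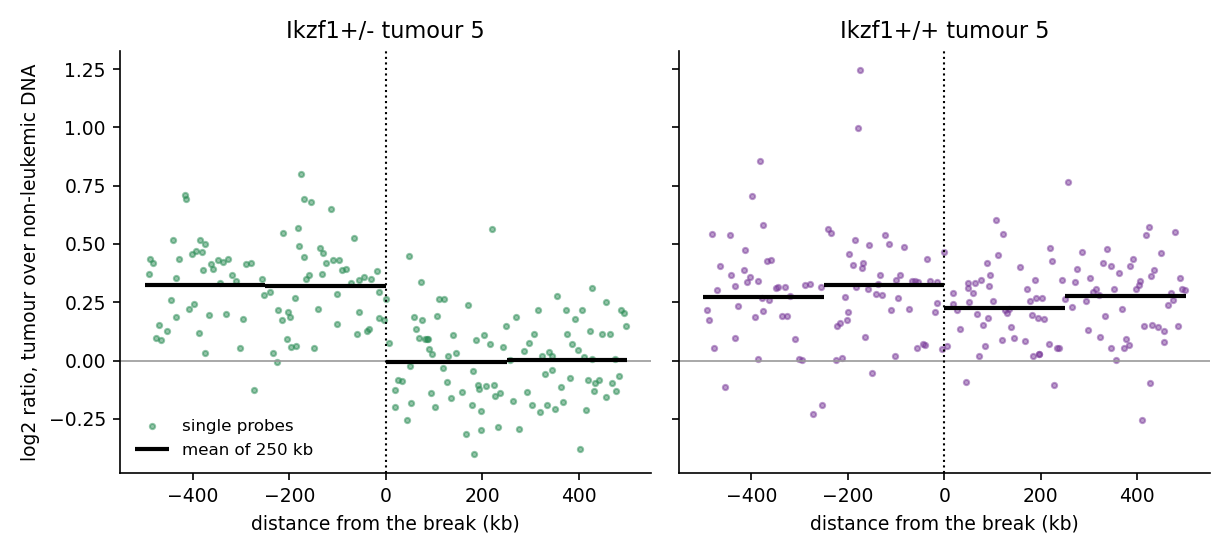
Log2 ratios of single probes (points) and means of 250 kb bins (black bars) within 500 kb of the break, for Ikzf1+/- tumour 5 (left) and Ikzf1+/+ tumour 5 (right). On the left the bins step from 0.32 to -0.0043 at the dotted line; on the right they stay between 0.22 and 0.32.

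Proximal to the break position, the means were 0.0098, -0.024, -0.027, -0.018 and 0.22 for Ikzf1+/+ tumours 1 to 5. The Ikzf1+/- tumours, in the same order, had -0.014, -0.0094, -0.0071, -0.020 and 0.27. Distal to it, the Ikzf1+/+ means were 0.011, -0.0056, -0.020, -0.014 and 0.22 and the Ikzf1+/- means 0.0024, 0.0021, 0.000019, 0.000047 and -0.029. The 4 unraised Ikzf1+/- tumours were thus within 0.0024 of 0 distally, and Ikzf1+/- tumour 5 lay below them all. The proximal minus distal difference ranged from -0.018 to -0.0016 over the Ikzf1+/+ group and from -0.020 to -0.0071 over Ikzf1+/- tumours 1 to 4, against 0.30 in Ikzf1+/- tumour 5. Only this last tumour had the proximal side higher, among the 10 examined.

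The left-out intervals are given beside the members next to them. The 715 probes of the first interval averaged 0.29 in Ikzf1+/+ tumour 5 and 0.34 in Ikzf1+/- tumour 5, and the 114 members within 500 kb of it 0.26 and 0.27. The 21 probes of the second interval averaged 0.48 and 0.32, beside 0.27 and 0.29 over 173 members within 500 kb. In Ikzf1+/+ tumours 1 to 4, where the chromosome was not raised, these 21 probes were at 0.68, 0.25, 0.15 and 0.29, so this interval did not follow the chromosome level.

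The channels were read apart to see which DNA carried the difference. Background-subtracted log2 signals were centred on each array's autosomal median and set against the mean of the 4 other arrays of the genotype. In the tumour channel, Cy5, chromosome 19 was 0.26 higher in Ikzf1+/+ tumour 5, and in Ikzf1+/- tumour 5 the value was 0.31 before the break and -0.029 after it. In the reference channel, Cy3, chromosome 19 differed by 0.00054 and 0.0040 in these tumours. These values split the same ratios that chose both tumours and are a description. Ikzf1+/+ tumour 5 shared its slide with Ikzf1+/- tumour 1 and Ikzf1+/- tumour 5 with Ikzf1+/- tumour 4, whose chromosome 19 levels were -0.0099 and -0.015.

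**Figure D4:**
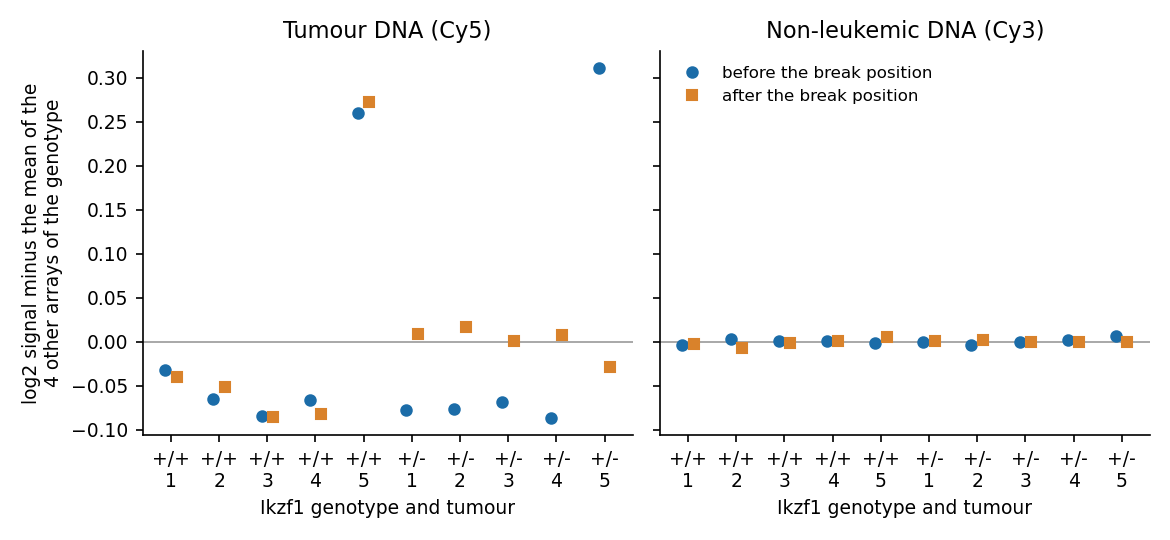
Chromosome 19 signal in the tumour channel (Cy5, left) and the reference channel (Cy3, right), as log2 signal minus the mean of the 4 other arrays of the same genotype, before (circles) and after (squares) the break position. Tumour 5 of each genotype stands out on the left and not on the right; the other tumours lie below 0 on the left, except after the break position in Ikzf1+/- tumours 1 to 4, which lie between 0.0013 and 0.017. Tumour 5 is among the arrays that tumours 1 to 4 of its genotype are set against.

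The levels were converted into a dose under linear mixing, which assumes that every cell has either 2 or 3 copies and that the array does not compress the ratio. Chromosome 19 of Ikzf1+/+ tumour 5, with a mean of 0.22 over probes, had 1.16 times the reference dose. That is 2.33 copies per cell, or an extra copy in 32.5% of cells (30.8% to 34.3% for 1 SD of these autosome medians either way). The gained side of Ikzf1+/- tumour 5 had 1.21 times the reference dose. That is 2.41 copies per cell, or an extra copy in 41.3% of cells (40.4% to 42.2%). With 2 extra copies in each affected cell the shares would be 16.3% and 20.6%. On background-subtracted signals without dye normalisation, an alternative added after the data were seen, they were 38.2% and 45.3% for 1 extra copy, and after another background correction (normexp) 44.8% and 61.1%. The shares therefore give an order of size and not a measured fraction of cells.

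Other gains of the same tumours, averaged as stated here, gave similar shares. Chromosome 5 of Ikzf1+/+ tumour 5 averaged 0.20, or an extra copy in 30.3% of cells (28.6% to 32.1%), beside the 32.5% of its chromosome 19. A 30.0 Mb segment of chromosome 14 in Ikzf1+/- tumour 5, from 95136374 to 125170673 with 3882 probes, averaged 0.28, or 43.5% of cells (42.6% to 44.4%), beside 41.3% before the break on chromosome 19. With the whole-chromosome average the intervals overlapped in the former tumour. They were separate but close in the latter, where only the gained segment of chromosome 14 was used. Whether the gains sat in the same cells was not measured. Chromosome 5 of Ikzf1+/+ tumour 3 averaged 0.45, or 73.5% of cells, so the array could return a higher value in another tumour.

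The deepest losses of the same tumours are given for scale; they were taken for their depth, and no other loss was compared. The lowest segment of at least 50 probes in Ikzf1+/+ tumour 5 was on chromosome 4 from 88859687 to 89076517, at -0.59 over 177 probes (SD over probes 0.319, array noise 0.191), or 1 copy lost in 66.7% of cells. In Ikzf1+/- tumour 5 it was on chromosome 11 from 44369539 to 44549789, at -0.48 over 534 probes (SD over probes 0.406, array noise 0.18), or 1 copy lost in 56.9%. Loss of both copies in each affected cell would give smaller shares in both segments. Probes within both segments spread more than the noise, so 1 mean describes them poorly. On Ikzf1+/+ arrays chromosome X gives a scale of its own, if its ratio is taken as 2 copies against 1. Its median of 0.92 in Ikzf1+/+ tumour 5 is 1.89 times the reference, and set against it the chromosome 19 gain would be in 36.6% of cells, an alternative also added after the data were seen. This scale itself depends on the processing: the X median of that array was 0.37 with normexp and 0.80 without dye normalisation.

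**Figure D5:**
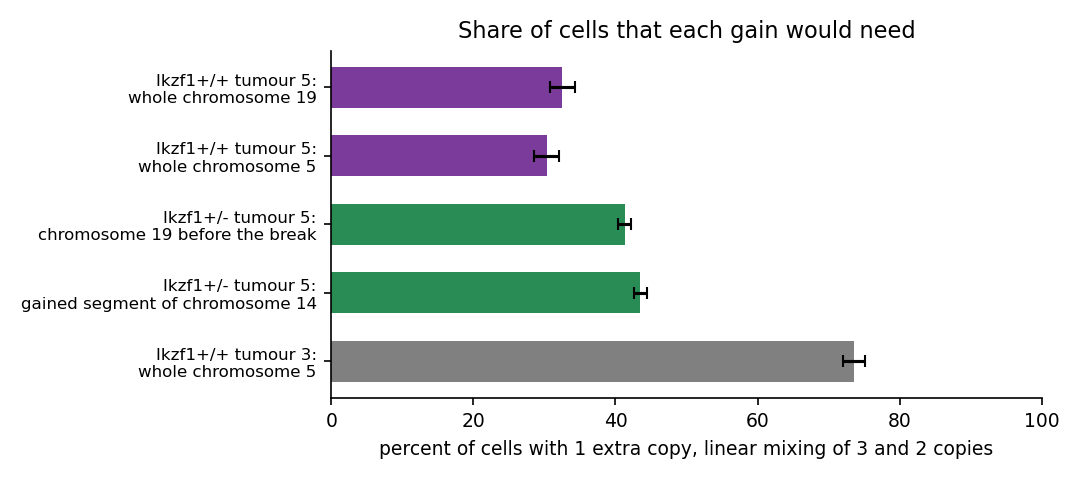
Percent of cells with 1 extra copy that each gain would need under linear mixing of 3 and 2 copies; error bars show 1 SD of the autosome medians of the array either way. The 2 gains of each tumour 5 sit close together, at 32.5% and 30.3% in Ikzf1+/+ tumour 5 and at 41.3% and 43.5% in Ikzf1+/- tumour 5. Chromosome 5 is averaged over its whole length, and its segments differ in level.

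Jak2 could be placed only by gene order, since the files hold no gene names and no mm9 gene annotation was used here. In the GRCm38 gene table it is number 420 of 705 protein-coding genes of chromosome 19, between Rcl1 and Insl6, with 59.4% of the genes before it. In Ikzf1+/+ tumour 5 every 1 Mb window was raised, so wherever Jak2 lies on the probed span its 1 Mb window was between 0.13 and 0.32. In Ikzf1+/- tumour 5 the side of the break on which Jak2 lies was not determined: a place before it would give windows of 0.22 to 0.32, and a place after it windows of -0.14 to 0.039. No level of Jak2 itself was measured, nor its RNA or protein.

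Many other genes of known function share the chromosome. The 69 genes listed in 5 groups were picked as genes of chromosome 19, and the gene table places all 69 there. Of all protein-coding genes of the chromosome 59.4% come before Jak2. Since the lists were picked, nothing is read from their counts before Jak2. A group of 18 kinase and receptor signalling genes, 8 of which come before Jak2, includes Gnaq, a G protein subunit, and Rps6kb2, a kinase of ribosomal protein S6. A group of 6 NF-kB pathway genes, 2 of them before Jak2, includes Rela and Nfkb2, subunits of the transcription factor itself, and Chuk, a kinase that activates it. The 16 lymphoid and immune genes, 4 of them before Jak2, include Cd5 and Ms4a1, surface proteins of lymphocytes, Dntt, which adds nucleotides when antigen receptor genes are joined, and Cd274, the ligand of an inhibitory receptor of T cells. The 17 genes of cell cycle, cell death and tumour suppression, 5 of them before Jak2, include Men1, a tumour suppressor, and Fas, a death receptor. The 13 Wnt and developmental genes, 4 of them before Jak2, include Tcf7l2, a Wnt pathway transcription factor. All 69 were in raised surroundings in Ikzf1+/+ tumour 5, because every window was; for Ikzf1+/- tumour 5 the side of each was not determined.

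Shorter changes within chromosome 19 were sought with a weak penalty (2 noise variances in the same formula), and segments of at least 5 probes beyond 0.3 in size were called. The other autosomes were not segmented with this penalty, so no share over them stands beside the counts. The calls were 2 in Ikzf1+/+ tumour 1, 1 each in Ikzf1+/+ tumours 2 and 4 and 2 in Ikzf1+/+ tumour 5. There was 1 in Ikzf1+/- tumour 1 and there were 2 in Ikzf1+/- tumour 5. Ikzf1+/+ tumour 3 and Ikzf1+/- tumours 2, 3 and 4 had 0. In Ikzf1+/+ tumour 5 both calls were stretches of the gain that lay a little above the rest: 0.35 from 14264145 to 14638890 (46 probes) and 0.30 from 55522903 to 59141595 (566 probes). In the latter stretch Ikzf1+/+ tumours 1 to 4 lay at 0.076, 0.044, 0.033 and 0.011, above their own chromosome medians, so the difference from the rest of the chromosome was partly shared. The lowest weak-penalty segment of Ikzf1+/+ tumour 5, 57 probes from 7713686 to 8489631, averaged only 0.071, short of a call.

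A short stretch near the break was high in several tumours. Over the 8 probes from 45825003 to 45852893, Ikzf1+/+ tumours 1 to 5 had means of 0.78, 0.46, 0.14, 0.55 and 0.59, and Ikzf1+/- tumours 1 to 5 had -0.11, 0.080, 0.088, 0.053 and 0.42. It lies in the last 200 kb before the break of Ikzf1+/- tumour 5. It was high in Ikzf1+/+ tumours whose chromosome 19 was not raised, in contrast to the whole-chromosome level, and the single probe at 45842225 reached 1.98 in Ikzf1+/+ tumour 1. Whether it bears on the break was not tested.

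Beyond the break, Ikzf1+/- tumour 5 had 2 short segments below 0. The segment from 50566623 to 50792460 averaged -0.30 over 35 probes and that from 50925137 to 51010571 averaged -0.47 over 11 probes. Both had an SD over probes (0.480 and 0.561) well above the noise of this array, 0.18, and were drawn down by a few deep probes. The probe at 50703283 lay at -1.998 and that at 50973799 at -1.89. In Ikzf1+/- tumour 2 the same probes lay at -1.07 and -0.99, and its means over the segments were -0.24 and -0.31. Low values were not limited to these tumours: the probe at 50587897, at -1.21 in Ikzf1+/- tumour 5, lay at -0.84, -0.46, -0.56 and -0.43 in Ikzf1+/- tumours 1 to 4 and at -0.42 and -0.38 in Ikzf1+/+ tumours 2 and 3. The probe at 50973799 lay at -0.46 in Ikzf1+/+ tumour 1 and -0.48 in Ikzf1+/- tumour 4. As segment means, the other 8 tumours lay between -0.098 and 0.16 in the first segment and between -0.19 and 0.22 in the second. In Ikzf1+/+ tumour 1 a segment from 20926594 to 21002743 averaged -0.48 over 13 probes. In Ikzf1+/- tumour 1 the 6 probes from 53252558 to 53254760, a stretch of 2.20 kb, averaged 0.42.

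Whether any stretch of chromosome 19 differed between the genotypes was examined in windows of 100 kb with at least 3 probes, fitted with limma over all 23419 autosomal windows. Slides 1 and 2, numbered in array order, held only Ikzf1+/+ tumours, slides 4 and 5 only Ikzf1+/- tumours, and slide 3 held both. The X and Y difference between tumour and reference also followed genotype. Genotype, slide and reference can therefore hardly be told apart in this test. After Benjamini-Hochberg adjustment 0 of 567 chromosome 19 windows differed, where 0.0214% of all windows (5) did. At an unadjusted p under 0.05 there were 24 chromosome 19 windows, or 4.23%, against 16.6% of all windows. That count was 51 (8.99%, against 14.8% of all windows) without Ikzf1+/+ tumour 5 and 39 (6.88%, against 14.4%) without Ikzf1+/- tumour 5. With the replicate number as a block it was 65 (11.5%, against 16.1% of all windows). The values of the raised tumours, which chose the chromosome, enter both sides of this comparison and widen its spread. The smallest adjusted p in limma was 0.110, for the window at 58400001, where the Ikzf1+/+ mean was 0.19 ± 0.08 and the Ikzf1+/- mean -0.0020 ± 0.027 (SD over 5 tumours of a genotype). Ikzf1+/+ tumours 1 to 5 had 0.20, 0.19, 0.12, 0.14 and 0.32 there, the last of them with its gain. Ikzf1+/- tumours 1 to 5 had -0.0011, 0.014, 0.021, 0.0045 and -0.048. This window was taken for the smallest p of the 567. How many other windows separate the groups as far was not counted, so nothing is read from its values. Without Ikzf1+/+ tumour 3, 1 window passed, lower in Ikzf1+/- tumours (limma adjusted p = 0.0497).

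The median difference over the 567 windows, Ikzf1+/- minus Ikzf1+/+, was -0.0015. Without Ikzf1+/+ tumour 5 it was 0.045, and without Ikzf1+/- tumour 5 it was -0.044. On the slide that held both genotypes, Ikzf1+/- tumour 1 minus Ikzf1+/+ tumour 5 gave -0.23, which is the gain of the latter tumour. With 1 raised tumour in each group of 5, the sign of this difference changed with the single tumour that was left out.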

How the data were processed

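Scanner files of 10 two-colour arrays and the series matrix were used. Per the labels, 1.5 µg of DNA was labelled with a ULS kit, tumour in Cy5 and reference in Cy3. The deposited files give each spot's intensity as processed by the scanner software, background-subtracted and dye-normalised, with a protocol whose name states lowess and build mm9 per the file headers. Agilent Feature Extraction is given as 10.5.1.1 in the submitters' processing notes and as 10.7.3.1 in the file headers. The scanner's deposited log10 ratio of Cy5 over Cy3 and the deposited matrix of log2 ratios were compared: after conversion the slope was 1.00 on every array with an intercept near 0, so the matrix was not centred. Its column medians ran from -0.019 to -0.00060.

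From the 412725 placed spots that were not controls, log2 of processed Cy5 over Cy3 was taken, spots flagged as outliers were left out, spots of a probe were averaged (158 members had several) and the autosomal median of each array was subtracted. Members were the chromosome 19 probes outside 32700000-33350000 and 40980000-41090000; members, gene lists and named regions were chosen with earlier results of these data known. Levels are medians, and means where stated. Breaks were fitted by least squares, segments by penalised change points of at least 3 probes, after probes beyond 4 noise SDs of an 11-probe running median had been pulled in to that limit (Python 3.11.15, numpy 2.4.6, numba 0.67.0, pandas 2.3.3, matplotlib 3.10.9). Windows were tested with limma 3.58.1 in R 4.3.3 at an adjusted p of 0.05. The fit of 1 break, the segmentation with the strong penalty and the window test were tested on simulated data with independent noise. Alternatives were another background correction (normexp, offset 50), other centring, matrix values, filters, blocks and left-out tumours. The number of arrays limits the precision.

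The files name no genes and the gene table is of GRCm38, so the planned gene tests and the level of Jak2 were not run. The table gave names and gene order only, and no probe sequence was used here. Named genes were Jak2, its neighbours in order and examples of the lists; the planned rule by highest and lowest level could not be applied. No column belonged to other samples.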

Additional observations from a re-analysis of the deposited data

Results flagged for a closer look

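In groups of 5 tumours, the gap from the extreme tumour to its neighbour was set against the group's range, with a critical value of 0.710 (Dixon's, 95%). Of 30 group values examined, 15 passed it; chance gives about 1 in 20. Most of the 15 repeat the gains of the same 2 tumours, whose raised values chose the chromosome, or stretches called in them, so their passing was fixed by that choice and supports nothing. No explanation was tested.

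Ikzf1+/+ tumour 5 stood apart from the 4 others of its genotype in the chromosome 19 median (0.21), the mean before (0.22) and after (0.22) the break position of Ikzf1+/- tumour 5, and the tumour channel (0.26). It also stood apart from 55522903 to 59141595 (0.30) and from 50566623 to 50792460 (0.16), where it carried the same gain. Ikzf1+/- tumour 5 stood apart in the chromosome 19 median (0.18), the mean before (0.27) and after (-0.029) the break, the difference between them (0.30), the tumour channel (0.22), and the stretches from 20926594 to 21002743 (0.25) and from 14264145 to 14638890 (0.27), both on its gained side.

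Outside these gains, the reference channel of Ikzf1+/+ tumour 1 lay at -0.0032 on chromosome 19, away from the 4 other arrays of its genotype but close to 0. Ikzf1+/- tumour 1 lay at 0.42 over the 6 probes from 53252558 to 53254760.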

How the results depend on the processing

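The last probe before the break of Ikzf1+/- tumour 5 was the same under 6 of 8 alternatives. With normexp it was the probe starting at 46007025. When 100 kb windows were fitted, the last window before the break started at 45900001. The levels of this tumour moved by more than the spread of the autosomes under several settings. With normexp they were 0.38 before and 0.029 after the break, with centring without chromosomes 5, 14 and 19 they were 0.28 and -0.021, and without dye normalisation 0.29 and -0.016; the side after the break thus changed sign with normexp. The chromosome 19 median of Ikzf1+/+ tumour 5 was 0.28 with normexp, 0.23 with that centring and 0.26 without dye normalisation. That of Ikzf1+/- tumour 5 was 0.28, 0.19 and 0.22, and its mean over probes 0.17. The share of cells in Ikzf1+/+ tumour 5 was 44.8%, 35.4% and 38.2% under these settings, 16.3% with 2 extra copies and 36.6% scaled to chromosome X. In Ikzf1+/- tumour 5 it was 61.1%, 42.8%, 45.3% and, with 2 extra copies, 20.6%. The cause of these shifts was not tested. Both gains kept their direction under every setting run.

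The count of 100 kb windows of chromosome 19 that differed between genotypes was 0 to 1 when a tumour was left out, and 0 under the other alternatives. The genotype difference of -0.0042 ran from -0.043 to 0.041 when a tumour was left out and was -0.22 on the slide with both genotypes. The labels number the tumours 1 to 5 in both genotypes. Over all autosomal windows, as deviations from the group mean, same-numbered tumours correlated at 0.044, 0.045, -0.019, 0.0029 and 0.198. Of the 5, 2 correlated best with their own number. The last value includes the chromosome 19 gains of both tumours 5. Such correlations cannot show whether the numbers pair tumours by a shared reference or batch. With the replicate number as a block the difference was again -0.0042 and 0 windows of chromosome 19 passed, with 1 window over all autosomes in place of 5. Over all autosomes the count was 5 in the main analysis, 71 with normexp, 0 with probe medians or with a minimum of 10 probes, 25 without Ikzf1+/+ tumour 3, and 1 or 2 without any other tumour. The planned tests over genes and the level of Jak2 were not run, as the files name no genes. Mean dose cannot separate copies per cell from the share of cells. In near-equal fits the start of the last probe before the break ranged over 21.1 kb.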
